A study of Canis lupus familiaris with 4 samples.

Results

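The expression of 6 cadherin genes, *CDH1*, *CDH2*, *CDH3*, *CDH6*, *CDH16* and *CDH17*, was examined on Affymetrix canine arrays of Madin-Darby canine kidney (MDCK) cells, an epithelial line derived from dog kidney. The genes were chosen by symbol, and every probe set that carried 1 of these symbols and no other was reported. This gave 14 of the 42924 probe sets on the array: 1 for *CDH1*, 2 for *CDH2*, 3 for *CDH3*, 4 for *CDH6*, 3 for *CDH16* and 1 for *CDH17*.

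Each of 4 conditions was measured on 1 array: HIF2α-KD cells in hypoxia (1% O2), control cells in hypoxia, HIF2α-KD cells in normoxia (16% O2) and control cells in normoxia. All cells were MDCK strain II, were kept for 24 h in normoxia and then spent 24 h at the stated oxygen level. Per the study's methods, HIF2α-KD cells carry a retroviral shRNA against HIF2α, the oxygen-regulated transcription factor subunit encoded by *EPAS1*, and were selected with puromycin, and the methods describe no cloning step for them. The sample labels call the other cells wild type, and these were read as the study's control cells, which carry no such shRNA. The labels name no knockdown line, and the paper's text on the normoxic arrays names HIF2α-KD#1. Since no condition was repeated, differences between single arrays are given without an error or a test.

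Cadherins are calcium-dependent adhesion proteins of the cell surface. The extracellular part of a cadherin binds cadherins of the neighbouring cell, and in the classical cadherins the cytoplasmic tail binds β-catenin and p120-catenin, which link the contact to actin and control its stability. *CDH1* (E-cadherin), *CDH2* (N-cadherin) and *CDH3* (P-cadherin) are type I and *CDH6* (K-cadherin) is type II classical cadherins. *CDH16* (Ksp-cadherin, found in kidney tubules) and *CDH17* (LI-cadherin, named after liver and intestine) have short cytoplasmic tails without the catenin binding site and are by background not classical cadherins. E-cadherin holds the adherens junctions of most epithelia together, and kidney tubules differ along their length in which cadherin they carry.

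The knockdown target was read first. The probe set of *EPAS1* above background, Cfa.17625.1.S1_at, had an intensity of 32.6 in HIF2α-KD cells and 116 in control cells in hypoxia. In normoxia it had 47.9 on the array labelled HIF2α-KD and 44.6 in control cells. A lower *EPAS1* level under the knockdown label was seen in hypoxia alone, so every direction given for knockdown in normoxia rests on an array whose label this probe set does not bear out. Its normoxic values lay close to the highest dim reporters, controls described below, of their arrays (45.1 and 36.1). The value of 32.6 in hypoxia lay below that of its array (54.3). The probe set may thus not resolve a knockdown in normoxia. The paper reports depletion of the HIF2α mRNA in its knockdown lines by RT-qPCR.

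The values are linear intensities with a median of 28.2 to 29.1 on the 4 arrays, and the log2 profiles of pairs of arrays correlated at 0.970 to 0.988 across probe sets. The array carries 64 reporter probe sets, controls that stand for no dog gene, and the 63 dim ones served as background. Their median was 5.48 to 7.24 and their 95th percentile 20.6 to 27.2, and a probe set over the 95th percentile of its own array was counted as above background. Differences were taken after adding 16 to each intensity and taking log2, and dim probe sets appear to change less on this scale than they do. The 23493 probe sets whose highest intensity reached 28.6, the median of the table, were kept for differences. Epithelial markers were bright, with *KRT18* at 13256 to 13868 and *EPCAM* at 10064 to 11719.

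Of the 14 cadherin probe sets, 10 were above background on at least 1 array, where 59.4% of all probe sets that are not reporters were, and 9 were so on all 4 arrays, against 47.9% of all. The same 10 passed the filter, and each of the 6 genes kept at least 1 probe set. The other 4, of *CDH3* and *CDH16*, were above background on no array. *CDH1* was above background on the 2 hypoxic arrays only, and it passed the filter through them, so it had to differ between the oxygen levels. Among the 9 probe sets above background on all 4 arrays, the ratio of the highest to the lowest intensity ran from 1.51 for *CDH16* to 3.97 for *CDH17*.

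**Figure D1:**
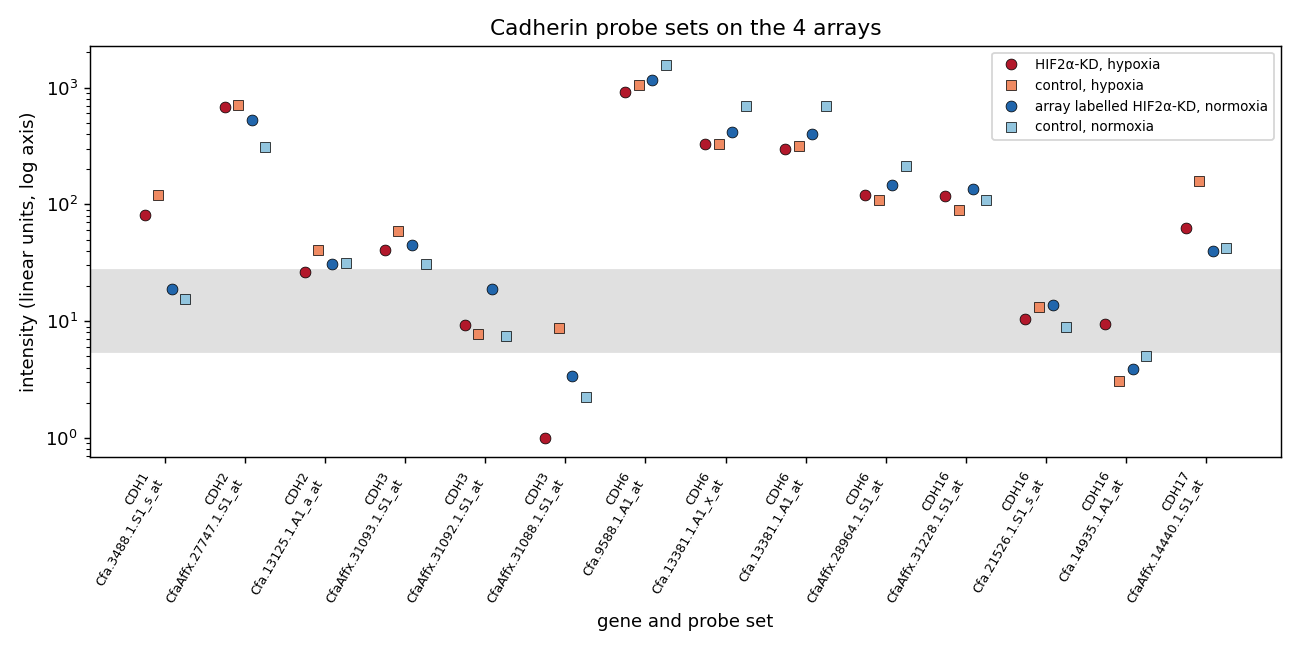
Intensity (log axis) of each of the 14 cadherin probe sets on the 4 arrays, 1 point per array, with circles for HIF2α-KD and squares for control cells and with red for hypoxia and blue for normoxia. The grey band spans the dim reporter probe sets, with the lowest median as its lower edge and the highest 95th percentile as its upper edge (5.48 and 27.2), and *CDH1* lies above it in hypoxia (81.4 and 119) and inside it in normoxia (18.9 and 15.45).

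*CDH1*, the E-cadherin gene, was read by 1 probe set, Cfa.3488.1.S1_s_at. In hypoxia its intensity was 81.4 in HIF2α-KD cells and 119 in control cells. In normoxia it was 18.9 on the array labelled HIF2α-KD and 15.45 in control cells. Both hypoxic values were above the highest dim reporter of their arrays, and both normoxic values were below the 95th percentile of the reporters (20.6 and 27.2), so the normoxic level is only a bound. Against that bound, the signal of this probe set was at least 3.95-fold higher in hypoxia than in normoxia in HIF2α-KD cells. In control cells it was at least 4.37-fold higher. The paper detects *CDH1* mRNA by RT-qPCR and E-cadherin protein by Western blot in normoxic MDCK cells, and reports both as lower in HIF2α knockout cells. The background signal in normoxia therefore does not show that the transcript was absent, and the folds describe this probe set only.

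In the additive limma fit over all 4 arrays, *CDH1* met the threshold for oxygen with a Benjamini-Hochberg adjusted p of 0.00714. This is given as a description and not as a call, since the probe set was kept only for its hypoxic values and the normoxic ones are at background. With no filter on dim probe sets, over 42860 probe sets, the adjusted p in limma was 0.0810 and *CDH1* did not pass. Without the hypoxic control array it was 0.125, and without each other array in turn it was 0.0230 to 0.0339.

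The knockdown comparison of *CDH1* had a direction in hypoxia only, where its intensity was 0.684 times that of control cells, a log2 difference of -0.47. Of the kept probe sets, 8.81% lay lower. In normoxia both arrays were at background and no fold is given.

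*CDH2*, the N-cadherin gene of neurons and mesenchyme that kidney tubule cells also express, had probe sets with unlike patterns. Its brighter probe set, CfaAffx.27747.1.S1_at, gave 680 in HIF2α-KD cells and 708 in control cells in hypoxia, and 530 on the array labelled HIF2α-KD and 310 in control cells in normoxia. The normoxic control array was thus the low one and the other 3 were closer together. Hypoxia exceeded normoxia by 1.15 on the log2 scale in control cells (2.29-fold) and by 0.35 in HIF2α-KD cells (1.28-fold). The knockdown difference was -0.06 in hypoxia and 0.75 in normoxia (1.71-fold), where 340 of the kept probe sets lay further up. The knockdown comparison in normoxia and the oxygen comparison in control cells share the normoxic control array, so these values are not independent of each other.

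The other *CDH2* probe set, Cfa.13125.1.A1_a_at, gave 26.4 in HIF2α-KD cells and 40.5 in control cells in hypoxia, and 30.7 on the array labelled HIF2α-KD and 31.6 in control cells in normoxia. It was above background on all 4 arrays, but above the highest dim reporter on 1. Its oxygen differences were -0.14 in HIF2α-KD cells and 0.25 in control cells. The limma difference for oxygen was 0.75 for the brighter probe set (SE 0.210, adjusted p = 0.0985) and 0.05 for the dimmer one (adjusted p = 0.903), and neither passed the threshold of 0.05.

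*CDH3*, the P-cadherin gene of basal epithelial layers, was above background through CfaAffx.31093.1.S1_at alone. This probe set gave 40.4 in HIF2α-KD cells and 59.3 in control cells in hypoxia, and 45.1 on the array labelled HIF2α-KD and 31.05 in control cells in normoxia. It was above the highest dim reporter of its array on only 2 arrays. The knockdown difference was -0.42 in hypoxia and 0.38 in normoxia. Hypoxia differed from normoxia by -0.12 in HIF2α-KD cells and by 0.68 in control cells. The fitted oxygen difference was 0.28 (95% confidence interval -0.24 to 0.80, limma adjusted p = 0.504). The other probe sets of *CDH3*, CfaAffx.31092.1.S1_at at 7.51 to 19.0 and CfaAffx.31088.1.S1_at at 1.00 to 8.72, stayed at background, and no fold is given for them.

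*CDH6*, the type II cadherin known from the proximal tubule of the developing kidney, was above background on all 4 arrays with all 4 of its probe sets. Cfa.9588.1.A1_at gave 911 in HIF2α-KD cells and 1053 in control cells in hypoxia, and 1149 on the array labelled HIF2α-KD and 1571 in control cells in normoxia. Cfa.13381.1.A1_x_at gave 327 in HIF2α-KD cells and 328 in control cells in hypoxia, and 420 on the array labelled HIF2α-KD and 688 in control cells in normoxia. All 4 probe sets had their highest value in control cells in normoxia and both hypoxic values under both normoxic ones, so the oxygen levels did not overlap, as held in this direction for 22.9% of all kept probe sets.

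The remaining *CDH6* probe sets followed the same order of oxygen levels. Cfa.13381.1.A1_at, which was designed from the same transcript sequence as the _x_at probe set and differed from it by at most 1.10-fold on any array, gave 298 in HIF2α-KD cells and 316 in control cells in hypoxia, and 400 on the array labelled HIF2α-KD and 689 in control cells in normoxia. CfaAffx.28964.1.S1_at gave 120 in HIF2α-KD cells and 108 in control cells in hypoxia, and 146 on the array labelled HIF2α-KD and 211 in control cells in normoxia. Probe sets of 1 gene read the same RNA and are not replicates of a condition.

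The hypoxia minus normoxia difference of *CDH6* was -0.40 to -0.26 over its probe sets in HIF2α-KD cells and -1.09 to -0.57 in control cells. The Cfa.13381 pair passed 2-fold in control cells, at 0.476 and 0.459 times the normoxic intensity, and the other pair did not. In limma the fitted oxygen differences were -0.75 to -0.45, with adjusted p-values of 0.0841 to 0.133, and no *CDH6* probe set passed the threshold. The knockdown difference was -0.76 to -0.45 in normoxia and -0.21 to 0.12 in hypoxia, where the probe sets did not share a sign.

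*CDH16*, the Ksp-cadherin gene that is typical of kidney tubules, had 1 probe set above background, CfaAffx.31228.1.S1_at. It gave 119 in HIF2α-KD cells and 89.1 in control cells in hypoxia, and 134 on the array labelled HIF2α-KD and 110 in control cells in normoxia. The HIF2α-KD array was the higher one at both oxygen levels, by 0.36 in hypoxia and 0.26 in normoxia. Its fitted knockdown difference was 0.31 (95% confidence interval -0.02 to 0.64, limma adjusted p = 0.557). Hypoxia differed from normoxia by -0.15 in HIF2α-KD cells and by -0.26 in control cells. Cfa.21526.1.S1_s_at, at 8.90 to 13.7, and Cfa.14935.1.A1_at, at 3.08 to 9.42, stayed at background.

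*CDH17*, the LI-cadherin gene of intestinal epithelium, was read by CfaAffx.14440.1.S1_at and was above background on all 4 arrays. It gave 62.8 in HIF2α-KD cells and 159 in control cells in hypoxia, and 40.0 on the array labelled HIF2α-KD and 42.2 in control cells in normoxia. The hypoxic control array was the high one. The knockdown difference was -1.15 in hypoxia, with 101 of the kept probe sets further down, and -0.06 in normoxia. Hypoxia exceeded normoxia by 0.49 in HIF2α-KD cells (1.57-fold) and by 1.59 in control cells (3.77-fold). The normoxic values were close to the highest dim reporters of their arrays (45.1 on the array labelled HIF2α-KD and 36.1 in control cells), and the former was below it. These folds are therefore uncertain. The fitted differences were 1.04 for oxygen (SE 0.252, limma adjusted p = 0.0698) and -0.60 for knockdown (limma adjusted p = 0.505), and neither passed the threshold.

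The intestinal markers, most of whose probe sets were at background, did not follow the order of *CDH17*, and nothing is read from this. Of 6 intestinal genes listed, 5 had a probe set, with 9 probe sets in all, of which 4 were above background on any array. The summed intensity of all 9, background signal included, was 167 in HIF2α-KD cells and 143 in control cells in hypoxia. In normoxia it was 179 on the array labelled HIF2α-KD and 162 in control cells. *KRT20* and *LGR5* were at background on every array, and the 1 gene kept was *LGALS4*, a lectin gene of intestinal epithelium. Its brighter probe set gave 56.9 in HIF2α-KD cells and 57.8 in control cells in hypoxia, and 69.7 on the array labelled HIF2α-KD and 61.2 in control cells in normoxia. Its other kept probe set gave 11.7 in HIF2α-KD cells and 2.89 in control cells in hypoxia. In normoxia that one gave 29.4 on the array labelled HIF2α-KD, its only value above background, and 11.6 in control cells.

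**Figure D2:**
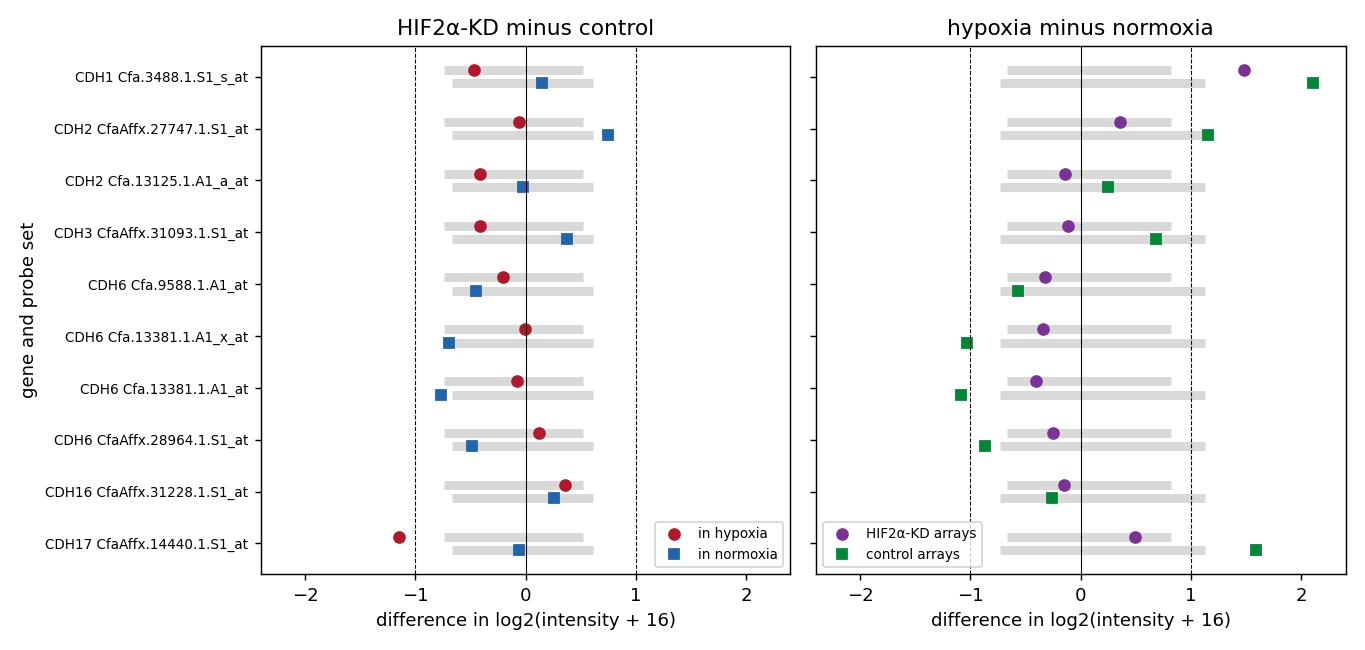
Differences in log2(intensity + 16) of the 10 kept cadherin probe sets between pairs of single arrays, with HIF2α-KD minus control on the left and hypoxia minus normoxia on the right. Grey bars hold the central 95% of all 23493 kept probe sets in the same comparison and dashed lines mark 2-fold. *CDH17* lies outside the bars for the knockdown in hypoxia (-1.15) and for hypoxia in control cells (1.59), and the points of *CDH1* on the right rest on normoxic values at background.

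Counted at 2-fold, the kept cadherin probe sets differed most often between the oxygen levels in control cells. There, 3 of 10 were higher in hypoxia, those of *CDH1*, *CDH17* and the brighter *CDH2* probe set, against 3.46% of all kept probe sets, and the 2 Cfa.13381 probe sets of *CDH6* were lower, against 0.681% of all. In HIF2α-KD cells 1 of 10 was higher in hypoxia, *CDH1* (1.48% of all), and 0 were lower (0.626% of all). For the knockdown in hypoxia, 0 were higher (0.157% of all) and 1 was lower, *CDH17* (0.851% of all). For the knockdown in normoxia, 0 were higher (0.626% of all) and 0 were lower (0.566% of all). Both hypoxic arrays lay above both normoxic ones for 3 of the 10, those of *CDH1*, *CDH17* and the brighter *CDH2* probe set, against 27.9% of all, and below them for the 4 of *CDH6*, which read 1 RNA. The sizes of these differences were not tested against each other.

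*CDH1* is among these counts although the filter had settled its oxygen difference, so they are no support for a difference of the cadherins from other genes. Over the 10 kept probe sets, 4 of them of *CDH6*, the median difference was -0.15 for hypoxia in HIF2α-KD cells and -0.01 in control cells, where the medians over all kept probe sets were 0.03 and 0.03. For the knockdown it was -0.14 in hypoxia and -0.04 in normoxia, where the medians over all were -0.04 and -0.03. With 1 probe set for each of the 6 genes, the medians were 0.12 for hypoxia in HIF2α-KD cells and 0.92 in control cells, and -0.31 for the knockdown in hypoxia and 0.20 in normoxia. The median thus depends on how the probe sets of a gene are counted.

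In limma, 1 of the 10 probe sets was called for oxygen, where 3.95% of all kept probe sets were (724 higher and 203 lower), and nothing is read from this share because the 1 is *CDH1*. Of the other 9 probe sets, 0 were called and 6 were below 0.05 unadjusted, where 22.0% of all were. These 6 include all 4 probe sets of *CDH6*, which read 1 RNA, so nothing is read from this share either. For the knockdown 0 of the 10 were called, and 0.0% of all, with 1 cadherin probe set below 0.05 unadjusted, *CDH17*, against 9.76% of all. Other settings of limma called between 0 and 36 probe sets for the knockdown, none of them of a cadherin listed here. The fit has 1 residual degree of freedom and takes the oxygen effect to be the same under both cell labels, so its error holds any departure from that as well as noise.

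**Figure D3:**
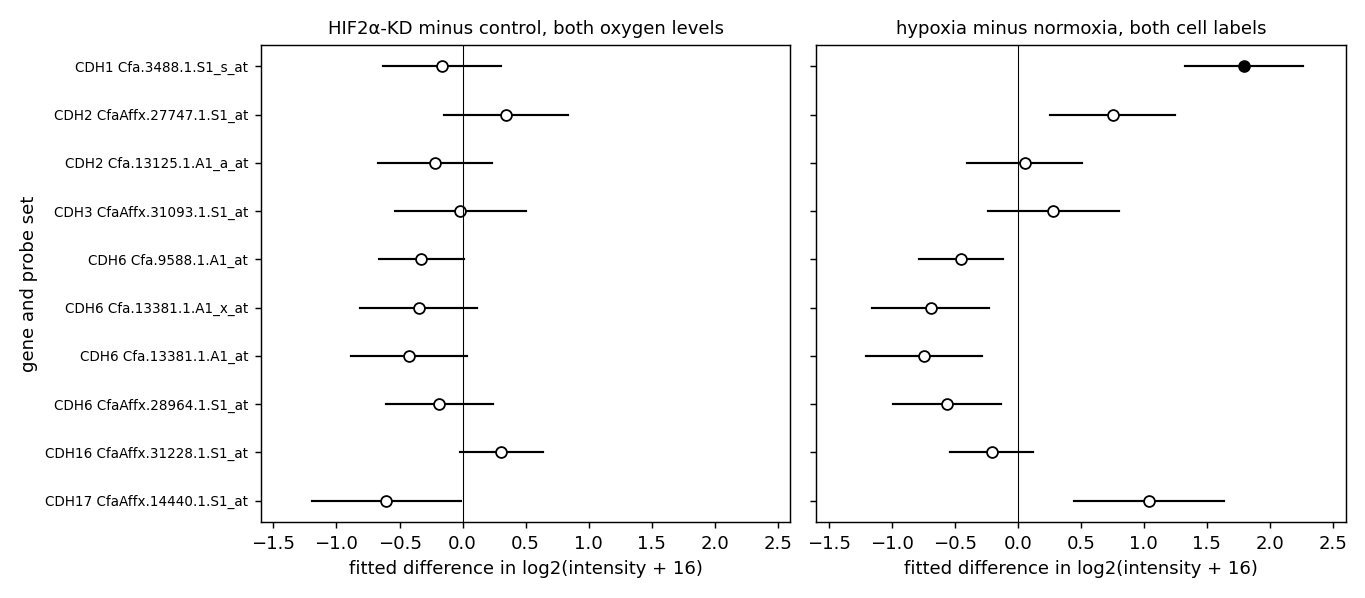
Fitted differences from the additive limma model over all 4 arrays for the 10 kept cadherin probe sets, with HIF2α-KD minus control over both oxygen levels on the left and hypoxia minus normoxia over both cell labels on the right. Bars are 95% confidence intervals and the filled point has an adjusted p below 0.05. The 1 filled point is that of *CDH1* for oxygen, whose probe set passed the filter through its hypoxic values alone.

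Most other cadherin genes read at background. Of 17 further genes of the family, 15 had a probe set and 12 of these were never above background, among them *CDH11* of mesenchyme and *CDH13* of vessels. *CDH5*, the endothelial cadherin, gave 88.8 in HIF2α-KD cells and 89.5 in control cells in hypoxia, and 117 on the array labelled HIF2α-KD and 92.7 in control cells in normoxia. *CDH22* gave 42.1 in HIF2α-KD cells and 33.3 in control cells in hypoxia, and 36.4 on the array labelled HIF2α-KD and 47.8 in control cells in normoxia. Probe sets of cell types foreign to the culture thus also reached such values, as *CDH5* did with up to 117. *CD3E* of T cells gave 35.1 to 45.3 over the arrays. Intensities of these sizes above the reporters do not by themselves show a transcript. The hypoxic values of *CDH1* (81.4 and 119) and the values of *CDH16* (89.1 to 134) lay in or near the range of *CDH5*.

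The catenins, which join classical cadherins to the cytoskeleton, differed between probe sets of 1 gene. All 10 listed had a probe set, 9 were above background on at least 1 array, and 8 were kept, with 20 probe sets. Of these 20, 1 passed 2-fold in any comparison, Cfa.20050.1.S1_s_at of *PKP4*, which encodes a p120-catenin relative. The same 1 of 20 passed the threshold for oxygen in limma, near the 3.95% of all kept probe sets, so nothing is read from this share. For the knockdown 0 passed, and 0.0% of all. Cfa.20050.1.S1_s_at gave 202 in HIF2α-KD cells and 187 in control cells in hypoxia, and 87.9 on the array labelled HIF2α-KD and 114 in control cells in normoxia. Its fitted oxygen difference was 0.86 (limma adjusted p = 0.0352). The other 5 kept probe sets of *PKP4* had fitted oxygen differences of 0.09 to 0.66 and did not pass in limma, and without any 1 of the 4 arrays the call was lost (adjusted p = 0.0791 to 0.317), as it was after cyclic loess normalization (0.0513), without the trend (0.0664), with the 75th percentile filter (0.0812) and with no filter (0.176). The other catenins are given by their brightest probe set, and those named have the largest differences on it. *JUP*, which encodes γ-catenin, gave 1693 in HIF2α-KD cells and 2750 in control cells in hypoxia, and 1585 on the array labelled HIF2α-KD and 2018 in control cells in normoxia. *CTNND1*, which encodes p120-catenin, gave 79.6 in HIF2α-KD cells and 94.2 in control cells in hypoxia, and 61.3 on the array labelled HIF2α-KD and 47.2 in control cells in normoxia. The knockdown difference of *JUP* was -0.69 in hypoxia and -0.35 in normoxia (fitted -0.52, limma adjusted p = 0.277). *CTNND2*, another p120-catenin relative, differed by 0.55 for the knockdown in hypoxia. *CTNNA1*, which encodes α-catenin, reached 0.93 for hypoxia in control cells on Cfa.18139.1.S1_s_at, a probe set chosen after its values were seen, and 0.08 on its brightest one.

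Genes of this and the following lists are given by their brightest kept probe set unless stated. Among 10 repressors of *CDH1* transcription, 3 were kept and 7 were never above background, *SNAI1*, *TWIST1* and *ZEB2* among them. *SNAI2*, which encodes the repressor Slug, gave 1266 in HIF2α-KD cells and 2739 in control cells in hypoxia, and 1218 on the array labelled HIF2α-KD and 542 in control cells in normoxia. Its oxygen difference was 0.05 in HIF2α-KD cells and 2.31 in control cells, and the fitted one was 1.18 (SE 0.442, limma adjusted p = 0.179). The control arrays thus held both the lowest and the highest value of *SNAI2*, and *CDH1* had its own highest value on the array where *SNAI2* was highest. That is a single array, *CDH1* was at background in normoxia, and a relation between these genes was not tested. *ZEB1* gave 28.3 in HIF2α-KD cells and 34.4 in control cells in hypoxia, and 79.4 on the array labelled HIF2α-KD and 11.9, at background, in control cells in normoxia. *TCF3*, which encodes the E-box factor E2A, stayed between 44.2 and 53.7.

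Of 16 transcription factor genes that maintain epithelial identity, 14 had a probe set and 8 were kept. *KLF4*, which encodes a zinc finger factor known to bind the *CDH1* promoter in mammary cells, gave 99.3 in HIF2α-KD cells and 230 in control cells in hypoxia, and 52.3 on the array labelled HIF2α-KD and 54.3 in control cells in normoxia. It passed the threshold for oxygen in limma, with a difference of 1.28 (SE 0.243, adjusted p = 0.0366), 1 of 8 kept genes of the list, where 3.5% of all genes kept were called. The call was lost without the hypoxic control array (difference 0.74, adjusted p = 0.359) and without either normoxic array (0.230 and 0.201). It was also lost after cyclic loess normalization, without the trend, with robust moderation and with either other filter (adjusted p = 0.0527 to 0.192). The other kept probe set of *KLF4* gave 29.7 in HIF2α-KD cells and 33.5 in control cells in hypoxia, and 32.8 on the array labelled HIF2α-KD and 26.4 in control cells in normoxia, and was not called.

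*KLF5*, *ELF3* and *EHF*, epithelial transcription factors named for their large differences, were lower under the knockdown label at both oxygen levels. The brightest probe sets of *KLF4* (-1.10 in hypoxia and -0.04 in normoxia) and *GRHL2* (-0.11 and -0.08) were too, though by little in normoxia. By contrast, *TFAP2A* (0.07 in hypoxia and 0.46 in normoxia) and *GRHL1* (0.35 and 0.27) were higher at both, and *OVOL2* changed sign. The other kept probe set of *GRHL1* was lower at both (-0.18 and -0.17). Those of *GRHL2* (0.51 in hypoxia and -0.34 in normoxia) and *KLF4* (-0.12 and 0.20) changed sign, so these genes have no shared direction over their probe sets. *KLF5* gave 717 in HIF2α-KD cells and 1763 in control cells in hypoxia, and 570 on the array labelled HIF2α-KD and 1018 in control cells in normoxia. Its fitted knockdown difference was -1.05 (SE 0.164, limma adjusted p = 0.141). That of *ELF3* was -0.75 (adjusted p = 0.183) and that of *EHF* was -0.58 (adjusted p = 0.248) in the same fit, so none passed the threshold.

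**Figure D4:**
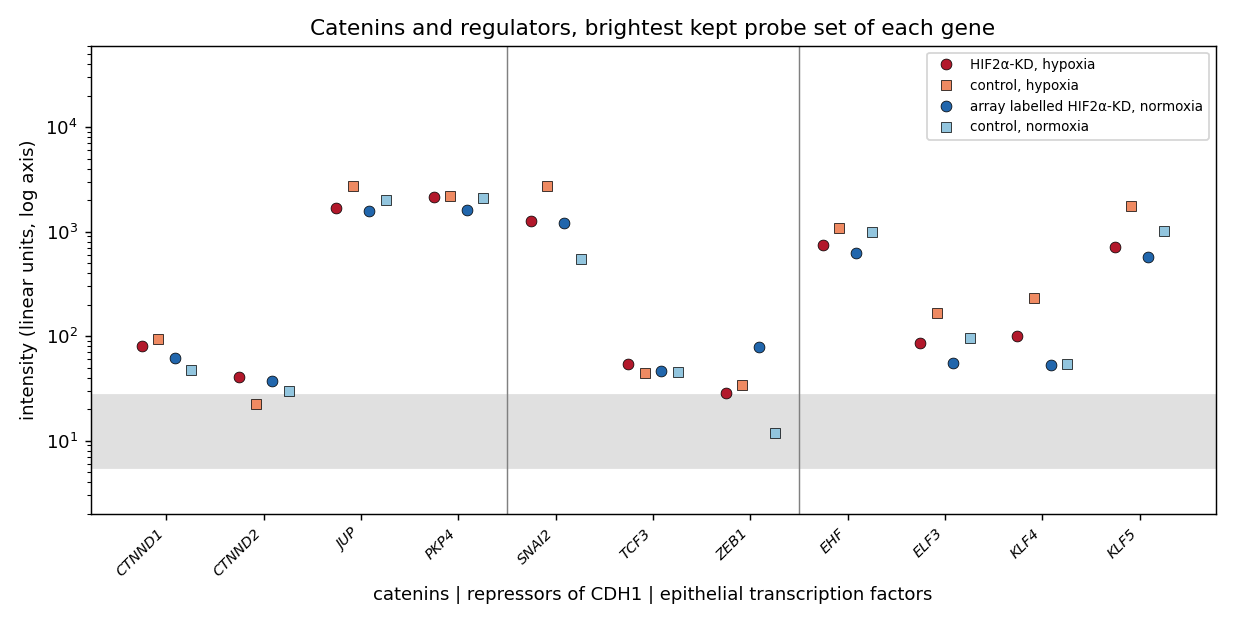
Intensity (log axis) of the named catenins, repressors of *CDH1* and epithelial transcription factors on the 4 arrays, with the brightest kept probe set for each gene and the same symbols as in the plot of the cadherin probe sets. The grey band is the range of the dim reporters (5.48 to 27.2), and *SNAI2* spans 542 to 2739 with both ends in control cells.

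Genes that shed or recycle E-cadherin had 11 of 13 members with a probe set and 6 kept, with 11 kept probe sets. Of these probe sets, 0 were called by limma for oxygen (3.95% of all kept) or for the knockdown (0.0% of all). Below 0.05 unadjusted were 1 for the knockdown, of *RAB11A* (9.76% of all), and 0 for oxygen (22.0% of all). Nothing is read from these shares. *MMP9*, a gelatinase gene, gave 58.9 in HIF2α-KD cells and 69.7 in control cells in hypoxia, and 228 on the array labelled HIF2α-KD and 29.2 in control cells in normoxia. Its other kept probe set did not show this difference. That one gave 39.0 in HIF2α-KD cells and 32.0 in control cells in hypoxia, and 38.2 on the array labelled HIF2α-KD and 30.4 in control cells in normoxia. *RAB11A*, which encodes a recycling endosome GTPase, gave 3429 in HIF2α-KD cells and 4882 in control cells in hypoxia, and 3867 on the array labelled HIF2α-KD and 4308 in control cells in normoxia. *ADAM15*, a membrane protease gene, and *NUMB*, an endocytic adaptor gene, had their largest differences at -0.39 and 0.29, both for hypoxia in control cells.

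Markers of cell types that a kidney culture could hold were read beside the cadherins. Of 8 epithelial keratin and junction genes kept, 0 passed 2-fold in any comparison. Of all kept genes, 0.983% to 3.58% did in a single comparison, so nothing is read from this count. *KRT7*, *CLDN4*, *CLDN7* and *OCLN*, the named ones, had oxygen differences between -0.25 and 0.24 on their brightest probe sets. Cfa.17318.1.S1_s_at of *KRT7* differed by 0.55 in control cells. Of 13 distal tubule and collecting duct genes, 7 were kept, and *AQP2*, the water channel of principal cells, and *UMOD* were never above background. *GATA3*, a collecting duct transcription factor gene, gave 199 in HIF2α-KD cells and 297 in control cells in hypoxia, and 142 in both cell labels in normoxia (fitted oxygen difference 0.71, limma adjusted p = 0.0704). *HOXB7* spanned 217 to 407 on its brightest probe set, and another, CfaAffx.25773.1.S1_at, gave 52.9 in HIF2α-KD cells and 73.5 in control cells in hypoxia, and 33.5 on the array labelled HIF2α-KD and 27.3 in control cells in normoxia. On their brightest probe sets, *SCNN1A* spanned 20.5 to 35.9 and *ATP6V1B1* 25.1 to 62.4.

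Of 8 proximal tubule genes, 3 were kept, and *LRP2*, *AQP1*, *SLC5A2* and *SLC22A8* were never above background. *CUBN*, which encodes the endocytic receptor cubilin, gave 307 in HIF2α-KD cells and 432 in control cells in hypoxia, and 214 on the array labelled HIF2α-KD and 183 in control cells in normoxia. *SLC34A1*, a phosphate transporter gene, had its largest difference at -0.21 and *ANPEP*, an aminopeptidase gene, at -0.40, both for hypoxia in control cells.

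A fibroblast marker had the same order of oxygen levels as *CDH1*. *PDGFRA* gave 75.7 in HIF2α-KD cells and 145 in control cells in hypoxia, and 33.8 on the array labelled HIF2α-KD and 31.5 in control cells in normoxia, and its fitted oxygen difference was 1.32 in limma (SE 0.223, adjusted p = 0.0267). The call was lost without the hypoxic control array (adjusted p = 0.301), without the array labelled HIF2α-KD in normoxia (0.140), without the normoxic control array (0.141), with no filter (0.168) and without the trend (0.0545), and the 75th percentile filter removes the gene. *PDGFRA* was 1 of 2 fibroblast genes of 8 above background on any array. The other, *LUM*, had the opposite order of oxygen levels, with values mostly at background. Its brighter probe set gave 15.5 in HIF2α-KD cells and 14.1 in control cells in hypoxia. In normoxia it gave 27.8 under the knockdown label, its only value above background, and 19.8 in control cells. *COL1A1*, *COL1A2*, *COL3A1* and *DCN* were at background on all 4 arrays. The summed intensity of the list was 218 in HIF2α-KD cells and 274 in control cells in hypoxia, and 187 on the array labelled HIF2α-KD and 200.4 in control cells in normoxia.

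Of 7 endothelial genes, 3 were kept and *PECAM1*, *KDR*, *TEK* and *VWF* were never above background. *FLT1*, a VEGF receptor gene, gave 1199 in HIF2α-KD cells and 1213 in control cells in hypoxia, and 1672 on the array labelled HIF2α-KD and 1208 in control cells in normoxia. *CLDN5* gave 20.1 to 31.2. Of 6 leukocyte genes, 4 were above background, *PTPRC*, *CD68*, *CD14* and *CD3E*, with intensities of 26.2 to 45.3. Of their 4 kept probe sets, 0 were called by limma for oxygen (3.95% of all kept) or for the knockdown (0.0% of all). Below 0.05 unadjusted were 0 for oxygen (22.0% of all) and 0 for the knockdown (9.76% of all). With so few probe sets, nothing is read from these shares. RNA from whole cultures cannot tell fewer cells of a type from less RNA per cell.

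Profiles over the 4 arrays were compared among the 683 genes with a range of at least 1 on the log2 scale, by the distance between centred profiles, for the 3 cadherin genes whose brightest probe set has such a range. *TENM4* was nearest to *CDH1*, at a distance of 0.117, with 410 in HIF2α-KD cells and 524 in control cells in hypoxia, and 139 on the array labelled HIF2α-KD and 119 in control cells in normoxia. *ZSWIM6* (0.181) and *LPGAT1* (0.185) followed it. The nearest to *CDH2* were *FAM155B* (0.0759), *RCN1* (0.120) and *ELL2* (0.165), and the nearest to *CDH17* were *MAP3K2* (0.0799), *OLFM1* (0.0877) and *MYOF* (0.203). With 4 arrays many genes share a profile, and the distances are a description.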

How the data were processed

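The authors made biotinylated cRNA from total RNA of the 4 cultures with the Affymetrix kit for 3' in vitro transcription and hybridised it to canine arrays. The deposited table holds a linear intensity for each probe set and array. How the authors summarised probes, corrected background and scaled arrays is not given in the sources used here. No sample column was left unused (0).

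Gene symbols came from the 2016 platform annotation, in which 29254 probe sets carry 1 symbol, 439 several and 13167 none, beside 64 reporters. Intensities were put on log2(intensity + 16). Probe sets were kept where the highest value reached 28.6, which left 23493 probe sets of 9766 named genes and others without a symbol. Pairs of arrays were compared by log2 differences, counted at 1 in size. limma 3.58.1 in R 4.3.3 fitted oxygen level and cell label as additive terms with a prior variance that follows the mean, and p-values were adjusted by Benjamini-Hochberg over all kept probe sets (threshold 0.05). Nothing in the labels shows separate cultures, so p-values measure only the spread between these arrays, which may be technical. "At least" folds set the intensity on the bright array against the higher of the dim probe set's own intensity and the reporter 95th percentile of that array. Python 3.11.15 with numpy 2.4.6, pandas 2.3.3 and matplotlib 3.10.9 did the rest, and the fit was tested on simulated data.

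The text names all cadherin probe sets, *EPAS1*, up to 4 genes of each list with the largest differences and the 3 nearest profiles; others were chosen after their values were seen. Members and lists were chosen with earlier results of these data known. Each value was recomputed after median centring, cyclic loess or quantile normalization, with pseudocounts of 1 and 64, without the filter or with it at the 75th percentile, at a 1.5-fold threshold, and with other limma moderation and other reporter limits. No sequence or coordinate is given.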

Additional observations from a re-analysis of the deposited data

Results flagged for a closer look

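The *CDH3* probe set CfaAffx.31093.1.S1_at differed in opposite directions between HIF2α-KD and control cells at the 2 oxygen levels, by -0.416 in hypoxia (40.4 in HIF2α-KD cells and 59.3 in control cells) and by 0.378 in normoxia (45.1 on the array labelled HIF2α-KD and 31.05 in control cells) on the log2 scale. Each value is larger in size than the robust SD over all kept probe sets, 0.267 in hypoxia and 0.257 in normoxia. Even so, 2641 of the kept probe sets lay further down in hypoxia and 1821 further up in normoxia. The probe set was above the highest dim reporter on only 2 arrays, so these differences are uncertain. The difference between the oxygen levels was not tested, since each condition has 1 array.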

How the results depend on the processing

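Under another normalization, pseudocount, filter or limma setting, no cadherin difference of over 0.09 in size changed sign. Below that, the knockdown differences in hypoxia of CfaAffx.27747.1.S1_at of *CDH2* and of the Cfa.13381 pair of *CDH6* did under a normalization between arrays, so none of these has a direction. Over all alternatives, 83 summary counts stayed within 1.5 times and 490 values of single probe sets kept their call or stayed within the spread over probe sets, while 6 differences of *CDH1* and *CDH17* changed in size with the pseudocount and kept their direction. A threshold of 1.5-fold counted 1 cadherin probe set higher and 2 lower for the knockdown in normoxia. A pseudocount of 64 left 0 lower for the knockdown in hypoxia, 0 lower for hypoxia in control cells and 0 higher for hypoxia in HIF2α-KD cells. A filter at the 75th percentile, which removes *CDH1* and *CDH17*, left 0 lower for the knockdown in hypoxia, 1 higher for hypoxia in control cells and 0 higher for hypoxia in HIF2α-KD cells. For oxygen, limma called 2 cadherin probe sets after median centring (*CDH17* at an adjusted p of 0.0435), 0 with no filter and 0 with the filter at the 75th percentile.

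Leaving out 1 array leaves no residual degree of freedom unless the other term is dropped, an alternative chosen after seeing the data in which a lone array is taken to vary like the others. The oxygen fit then called 0 to 2 cadherin probe sets, with 0 without the hypoxic control array and 2 without the HIF2α-KD array in hypoxia (*CDH17* at an adjusted p of 0.0339), and Cfa.13125.1.A1_a_at of *CDH2* spanned -0.15 to 0.26. The knockdown fit called 0 each time and, with the oxygen term dropped, mixes in the oxygen difference: *CDH1* spanned -1.21 to 0.89 (0.58 without the array labelled HIF2α-KD in normoxia), CfaAffx.27747.1.S1_at of *CDH2* -0.23 to 0.92, *CDH3* -0.36 to 0.32 (0.039 without the HIF2α-KD array in hypoxia), *CDH17* -1.40 to 0.19, and the *CDH6* probe sets Cfa.13381.1.A1_x_at -0.87 to 0.17, Cfa.13381.1.A1_at -0.96 to 0.12 and CfaAffx.28964.1.S1_at -0.62 to 0.25. No paired analysis was possible because each group has 1 array. With 1 array per condition and signals of *CDH1*, *CDH3*, the dimmer *CDH2* probe set and, in normoxia, *CDH17* close to the reporters, small differences are not resolved.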
